A study of Homo sapiens with 4 samples.

Results

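Mitosis in human cells is run by a fixed set of kinases, kinetochore proteins, motor proteins and cytokinesis factors, and 49 of their genes were followed in 2 colon cell lines treated with sturgeon chondroitin sulfate (SCS). The genes were chosen by symbol and role, from a list made with earlier results of these data known, and all 49 were found among the 18650 loci with a value above 0. HT-29 is an established human colorectal adenocarcinoma line, and NCM460 is a human colon epithelial line that the study used as normal cells. Each line was sequenced as an untreated control and after 24 h in medium with SCS at 100 μg/mL, a sulfated polysaccharide prepared from sturgeon, which gave 4 RNA-seq libraries with 1 library per condition. The labels name no genetic change and no further agent in any group. Since no condition was replicated, the intervals below cover counting error only, and the spread between cultures was not measured.

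Cells enter mitosis when CDK1 bound to cyclin B is freed from its inhibitory phosphates by CDC25 phosphatases, and PLK1 and the Aurora kinases then act at centrosomes, centromeres and the spindle midzone. Kinetochores built on CENPA chromatin bind spindle microtubules, and the checkpoint proteins MAD2L1, BUB1B and BUB3 hold back the APC/C ubiquitin ligase until the chromosomes are attached. Most of these genes are transcribed late in the cell cycle, in G2 and M, and many carry a cell-cycle homology region (CHR) and CCAAT boxes, which are bound by the MuvB complexes with B-MYB and FOXM1 and by NF-Y.

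These promoter letters were common among the 49 genes. A RefSeq window of 300 bases (250 before and 50 after the start, GRCh38.p14) was matched for 41 of the genes, and none was matched for AURKA, TTK, FOXM1, BUB3, BIRC5, TPX2, RACGAP1 and UBE2C. The CHR letters TTTGAA were found on either strand in 29 of the 41 windows (70.7%, against 15.5% of 27305 promoters), and the form TTTAAA in 13 (31.7% against 12.4%). Either form was present in 34 windows (82.9% against 24.4%). CCAAT was found in 31 windows (75.6% against 35.7%), and at least 2 copies in 21 (51.2% against 11.3%). A CHR form and CCAAT stood together in 27 windows, or 65.9%, while 9.55% of all promoters held both. CDC25B, CDC25C and CKAP2 held none of these letters in the window, and AURKB, BUB1, SPC24 and KIF22 held CCAAT without a CHR form. A match of letters is a description and no evidence of binding. The 250 bases upstream of 4 genes are shown 5′ to 3′ on the strand of the gene, since they span the range from several matches to none and no annotated GENCODE 29 exon overlapped them. Capitals mark the CHR letters (TTTGAA or TTTAAA, or TTCAAA where the match is on the other strand) and the CCAAT letters (ATTGG on the other strand).
KIF11, chr10:92592880-92593129, plus strand: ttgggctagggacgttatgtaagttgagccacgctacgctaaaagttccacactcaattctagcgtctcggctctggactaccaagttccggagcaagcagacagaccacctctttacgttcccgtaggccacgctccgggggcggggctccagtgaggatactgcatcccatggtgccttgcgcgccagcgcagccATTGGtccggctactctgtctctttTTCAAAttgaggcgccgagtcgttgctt
CENPF, chr1:214602945-214603194, plus strand: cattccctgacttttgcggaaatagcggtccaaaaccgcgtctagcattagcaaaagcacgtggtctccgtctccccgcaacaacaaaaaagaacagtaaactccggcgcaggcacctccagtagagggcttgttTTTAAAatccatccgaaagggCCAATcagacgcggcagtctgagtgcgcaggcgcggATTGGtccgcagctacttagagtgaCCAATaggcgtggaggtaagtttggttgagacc
MKI67, chr10:128126424-128126673, minus strand: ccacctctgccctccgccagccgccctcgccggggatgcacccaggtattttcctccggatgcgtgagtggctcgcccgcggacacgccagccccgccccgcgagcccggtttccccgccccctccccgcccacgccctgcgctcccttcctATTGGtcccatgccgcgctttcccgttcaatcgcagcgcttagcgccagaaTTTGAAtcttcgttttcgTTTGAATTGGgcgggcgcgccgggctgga
CDC25C, chr5:138338356-138338605, minus strand: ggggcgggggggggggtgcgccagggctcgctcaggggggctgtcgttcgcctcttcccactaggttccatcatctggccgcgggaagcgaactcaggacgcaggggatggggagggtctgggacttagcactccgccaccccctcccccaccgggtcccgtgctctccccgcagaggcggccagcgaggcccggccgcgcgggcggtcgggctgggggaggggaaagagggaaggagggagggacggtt

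**Figure D1:**
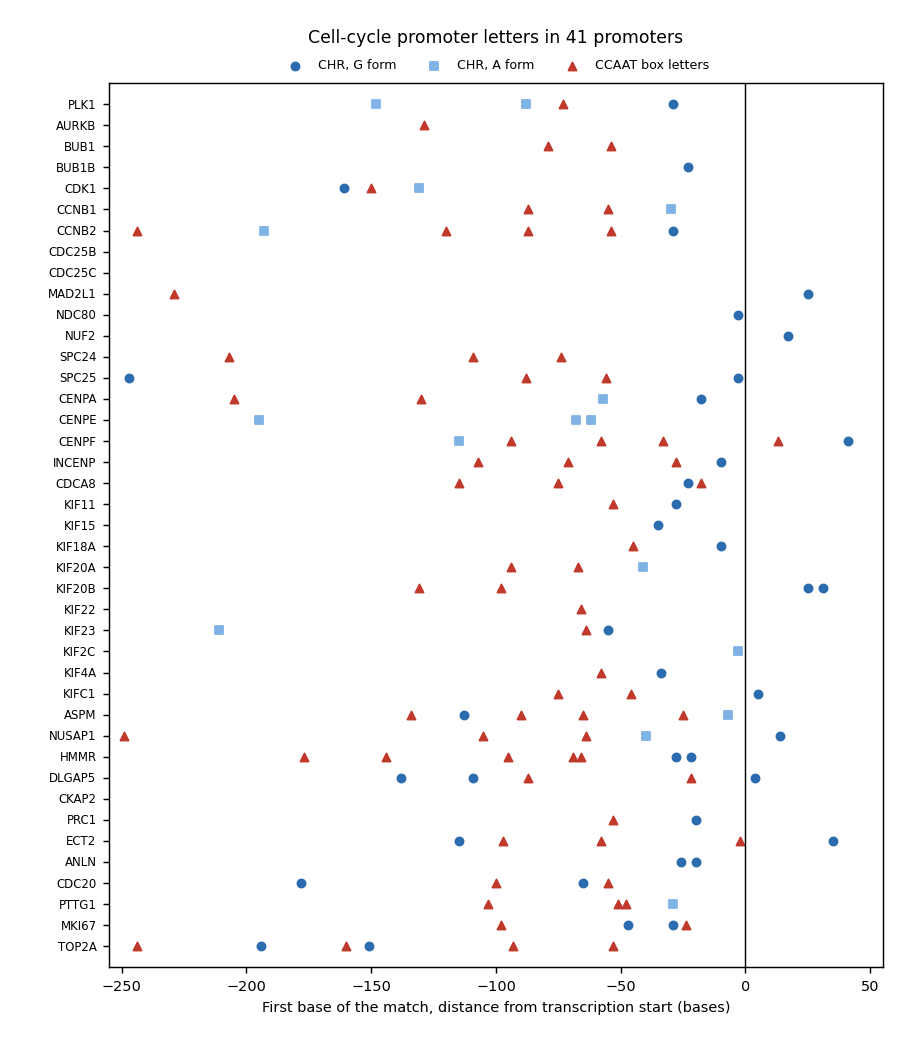
Positions of the CHR letters (circles, TTTGAA form; squares, TTTAAA form) and the CCAAT letters (triangles) in the 41 matched promoter windows, one row per gene, with distance from the transcription start in bases on the horizontal axis. Of 69 CCAAT matches, 48 began within 100 bases upstream of the start, as did 31 of 55 CHR matches.

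The libraries held 1156567 to 1654764 fragments in genes. Fragments of the mitochondrial genome made up 35.8% and 13.8% of the HT-29 control and SCS libraries and 62.3% and 46.3% of those of NCM460, which left 507692 to 1383424 nuclear fragments. Levels are given as CPM, that is fragments scaled to a common library size (all fragments in genes, the mitochondrial genome included, multiplied by a TMM factor), so that 1 fragment in the HT-29 control stood for 0.489 CPM. Of the 12 colon epithelium markers, 9 and 8 were above 0 in the HT-29 libraries and 6 in each NCM460 library, and CDX1 and GPA33 were at 0 in all 4. CDX2 was at 0 in both HT-29 libraries, and VIL1, KRT20 and LGALS4 were at 0 in both NCM460 libraries. The summed level of the epithelial markers was 6526 CPM in the HT-29 control and 3535 CPM with SCS, and 4346 and 2659 CPM in NCM460. In HT-29 cells this drop was that of KRT8 (3433 to 1464 CPM), KRT18, KRT19 and VIL1, whereas LGALS4 (67.4 to 193 CPM), KRT20 and CDH1 were higher with SCS. The 5 mesenchymal markers summed to between 5.87 and 36.1 CPM over the 4 libraries, and the leukocyte markers were at 0. The part of these shifts in the results below was not tested. In cultures sequenced in bulk, fewer cells in mitosis and less RNA of these genes per cell cannot be told apart.

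All 49 genes had at least 1 fragment in each library. The median was 76 fragments per gene in the HT-29 control and 37 with SCS, and 17 and 41 in NCM460. In the NCM460 control 11 genes had 3 fragments or fewer, which left wide counting intervals for their changes in that line. By the deposited FPKM, which allows genes to be compared per length, the highest levels in the HT-29 control were those of UBE2C (50.8), PRC1 (39.1), PTTG1 (37.2), CCNB1 (33.6) and CDC20 (33.0). In the NCM460 control UBE2C (140), CDC20 (126), PLK1 (97.2), KIF22 (63.2) and PTTG1 (61.2) led. KIF15, a spindle kinesin, was lowest in the HT-29 control, at an FPKM of 0.841, and ASPM, a spindle pole protein, was lowest in the NCM460 control, at 0.507. Between the untreated lines, 20 genes were past 1.5-fold in favour of HT-29, with intervals that did not include 0, and 12 in favour of NCM460, where 25.3% and 23.1% of the 12691 loci compared were past that limit in the same directions. The genes higher in HT-29 cells included ASPM, KIF11 and ANLN, and those higher in NCM460 cells included CDC20, PLK1, KIF22 and UBE2C. The transcript GC content of ASPM (37.1%), KIF11 (38.3%) and ANLN (40.03%) was below the median of the 49 genes (43.2%). That of CDC20 (57.9%), PLK1 (57.3%), KIF22 (58.9%) and UBE2C was above it. No GC trend was subtracted from this comparison of untreated lines, and the part of GC content in it was not tested. By FPKM, ANLN was at 14.3 in the HT-29 control and 10.8 in the NCM460 control, closer than ASPM (3.23 and 0.507) and KIF11 (5.41 and 1.33).

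**Figure D2:**
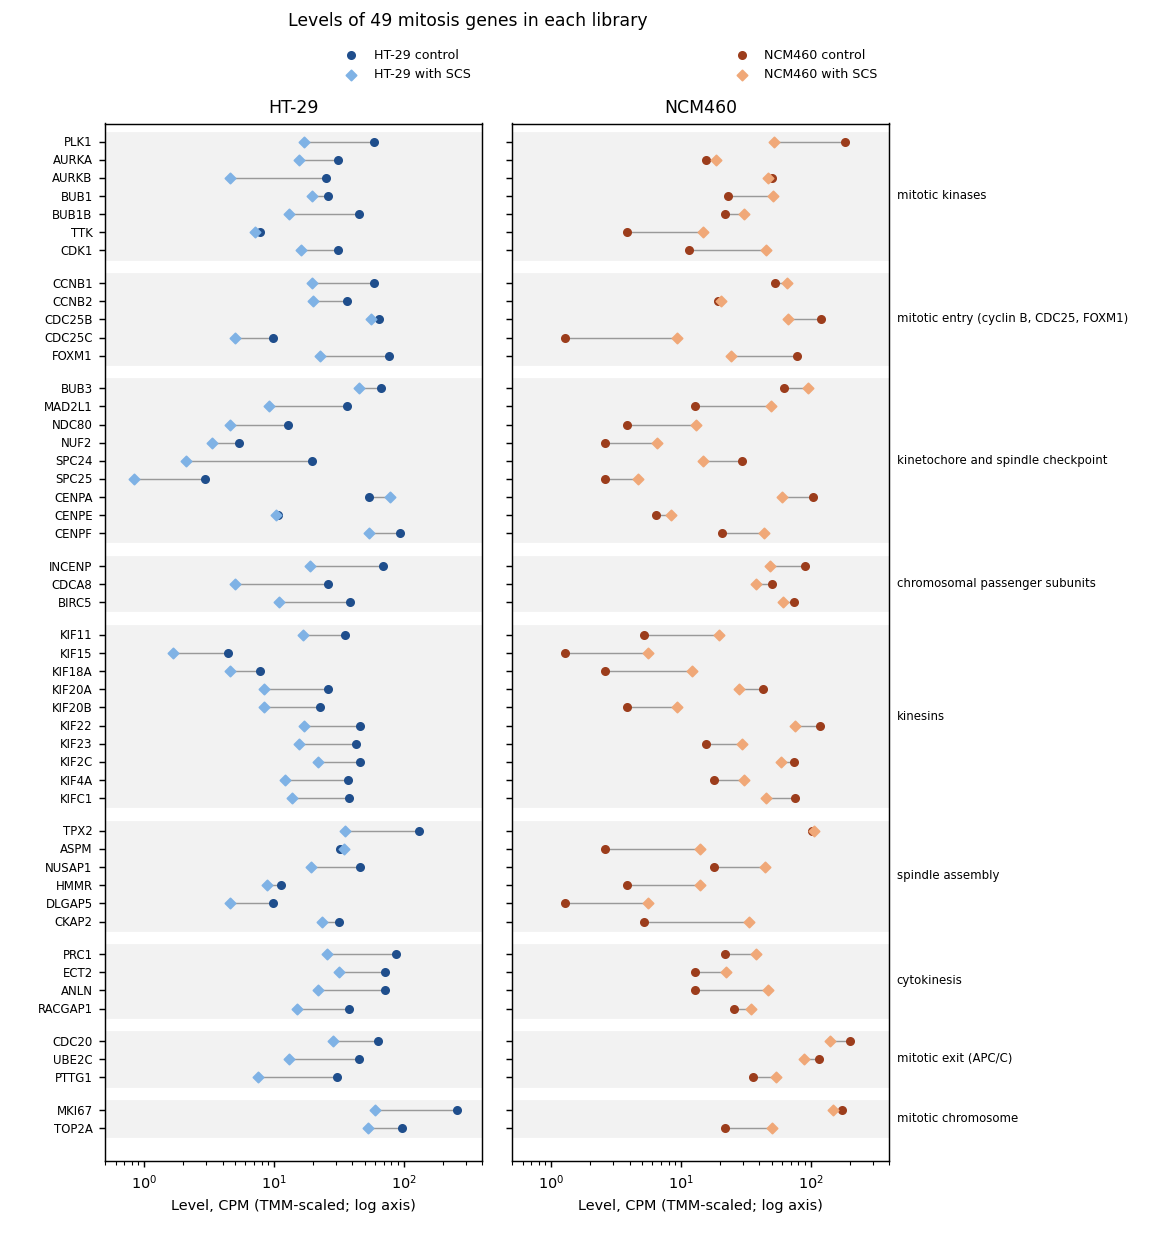
Level of each of the 49 genes in CPM (log axis) in the control (circles) and SCS (diamonds) library of HT-29 (left) and NCM460 (right) cells, 1 library per symbol, with genes grouped by role. In HT-29 cells the SCS symbol lies to the left for 47 of 49 genes; in NCM460 cells it lies to the left for 16 and to the right for 33, a split that became 27 and 22 with the deposited FPKM.

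Most of these genes were lower in HT-29 cells after SCS treatment. A gene was called when it was past 1.5-fold with a 95% counting interval that excluded no change, and 34 of 49 genes were called lower and 0 higher. Of the 12168 loci tested in this line, 14.8% were called lower and 16.8% higher. The median log2 fold change of the 49 genes was -1.21, and that of all loci tested was 0.07. Their fragments summed to 4564 in the control and 2301 in the SCS library, which was 2231 and 958 CPM, a log2 change of -1.22 (95% counting interval -1.29 to -1.15). PLK1, CCNB1, MAD2L1 and BIRC5 are among the genes the study itself listed for their change in HT-29 cells, and PLK1 also for NCM460 cells, so those 4 are not independent of that choice. Of the other 45 genes, 30 were called lower, with a median of -1.14.

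In NCM460 cells the same genes were split. As counted, 8 genes were called lower and 15 higher, against 13.7% and 15.3% of the 12657 loci tested. The summed level was 2147 CPM in the control and 2035 CPM with SCS, a log2 change of -0.08 (-0.17 to 0.02). The median log2 fold change was 0.55 as counted, but it was -0.21 with the deposited FPKM and -0.055 once the trend of fold change on transcript GC content over all loci was subtracted. After that subtraction PLK1, FOXM1 and CENPA were called lower and CKAP2 higher, against 6.4% of loci called lower and 6.19% called higher. By total fragments, with the mitochondrial genome in the total, 2 genes were called lower and 26 higher.

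**Figure D3:**
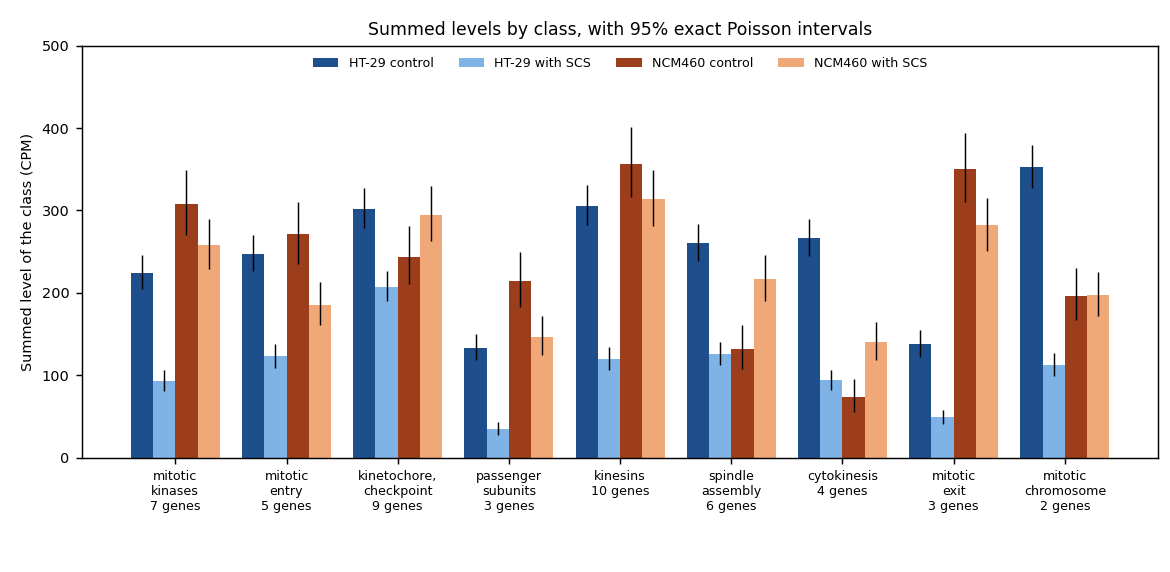
Summed level in CPM of the genes of each class in the 4 libraries, with 95% exact Poisson intervals that cover counting error only. The HT-29 SCS bar is below the HT-29 control bar in all 9 classes. In NCM460 cells the intervals of the change excluded 0 for higher sums of spindle assembly, cytokinesis and, narrowly, kinetochore genes. They also excluded 0 for lower sums of entry, passenger, exit and, narrowly, kinase genes. The kinase sum held the fall of PLK1 (182 to 51.8 CPM), while 5 of 7 kinase and 3 of 5 entry genes were higher. In contrast to the sums, the cytokinesis median was -0.60 with FPKM and the passenger median 0.28 by total fragments.

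All 7 mitotic kinase genes were lower with SCS in HT-29 cells, and 5 were called. The class sum was 224 CPM in the control and 92.8 CPM with SCS. PLK1 (chr16:23677656-23690367, plus strand), the Polo-like kinase of mitotic entry and spindle assembly, had 121 fragments in the HT-29 control and 41 with SCS, and 142 and 56 in NCM460. It fell in both lines, by 1.74 (counting interval -2.34 to -1.27) on the log2 scale in HT-29 cells and by 1.77 (-2.29 to -1.36) in NCM460 cells, and these calls were kept under all 14 alternative settings. The difference between the lines was 0.03, with an interval from -0.65 to 0.70. AURKB, the Aurora kinase of the chromosomal passenger complex, had 51 and 11 fragments in HT-29 cells and fell by 2.24, and in NCM460 cells it had 39 and 50 fragments and a log2 change of -0.11 (-0.75 to 0.53). AURKA, the Aurora kinase of the spindle poles, had 63 and 37 fragments in HT-29 cells and fell by 0.96. Exons of AC008870.3 and ERN2 overlap PLK1 on the opposite strand, and whether the counting used strand is not given in the sources used here.

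CDK1, the kinase that drives entry into mitosis, went opposite ways. It had 63 fragments in the HT-29 control and 39 with SCS, and 9 and 49 in NCM460, so that it fell by 0.89 in HT-29 cells and rose by 1.79 (0.93 to 3.18) in NCM460 cells. With the GC trend subtracted, its NCM460 value was 0.63 and was not called. BUB1B, the checkpoint kinase-like protein BubR1, fell by 1.73 in HT-29 cells, from 92 to 31 fragments, but its locus in the table is shared with PAK6 and its value is therefore uncertain. BUB1 and TTK, the checkpoint kinases that act at unattached kinetochores, had 53 and 47 and 16 and 17 fragments in HT-29 cells and were not called there. In NCM460 cells BUB1 rose from 18 to 55 fragments and TTK from 3 to 16, and neither was called after the GC trend was subtracted.

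Among the genes of mitotic entry, CCNB1, CCNB2 and FOXM1 were called lower in HT-29 cells and the CDC25 phosphatases were not called. CCNB1, which encodes cyclin B1, had 121 and 47 fragments in HT-29 cells, a log2 change of -1.55, and 41 and 71 in NCM460 cells, a change of 0.31 (-0.26 to 0.91). CCNB2 fell by 0.85 in HT-29 cells, from 75 to 48 fragments, and had 15 and 22 fragments in NCM460 cells. FOXM1 (chr12:2857681-2877155, minus strand), the transcription factor of G2 and M genes, was called lower in both lines, like PLK1. It went from 158 to 54 fragments in the HT-29 pair and from 61 to 26 in the NCM460 pair, and it fell by 1.74 and 1.62, respectively, with a difference between the lines of -0.08 (-0.88 to 0.71). Both calls held under all 14 alternatives, although its exons overlap those of ITFG2 on the opposite strand. CDC25B had 132 and 134 fragments in HT-29 cells, a log2 change of -0.21 (-0.57 to 0.15). In NCM460 cells CDC25B fell from 93 to 72 fragments, a change of -0.82, which was -0.23 after GC subtraction and was then not called. CDC25C had 20 and 12 fragments in HT-29 cells. Its 1 fragment in the NCM460 control against 10 with SCS gave a log2 ratio of 1.73 with an interval from 0.03 to 8.29. This rise was not called after GC subtraction.

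The kinetochore and checkpoint genes had the smallest drop of the class sums in HT-29 cells, with 4 of 9 called lower. The sum was 302 CPM in the control and 208 CPM with SCS. It held the CENPA locus, counted together with SLC35F6, which rose from 110 to 189 fragments. By class median, spindle assembly (-0.70) dropped less than the kinetochore and checkpoint genes (-0.80). MAD2L1, the checkpoint protein that sequesters CDC20, had 75 and 22 fragments in HT-29 cells and fell by 1.90. In NCM460 cells it rose from 10 to 53 fragments, by 1.77 (0.94 to 3.07). After GC subtraction this rise was 0.73 (-0.10 to 2.03) and was not called. The 4 subunits of the NDC80 complex, which couples kinetochores to microtubules, were uneven. In HT-29 cells SPC24 went from 40 to 5 fragments, a log2 change of -2.78, and NDC80 from 26 to 11, a change of -1.31. NUF2, with 11 and 8 fragments and a change just short of 1.5-fold, and SPC25, with 6 and 2, had intervals that included 0 and were not called. In NCM460 cells SPC24 went from 23 to 16 fragments and its interval ended at -0.01, a call that was lost under 6 alternatives. CENPF, an outer kinetochore protein, fell from 191 to 128 fragments in HT-29 cells and rose from 16 to 47 in NCM460 cells, and the rise was not called after GC subtraction. CENPE, the kinetochore kinesin, was not called in either line, with 22 and 25 fragments in the HT-29 pair and 5 and 9 in the NCM460 pair.

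CENPA, the histone H3 variant of centromeres, differed between the lines in the direction opposite to most of the genes. Its locus had 110 fragments in the HT-29 control and 189 with SCS, a log2 change of 0.54 (0.20 to 0.90) that did not reach 1.5-fold, and 81 and 65 in NCM460 cells, where it fell by 0.77. The difference between the lines was 1.34 (0.76 to 1.91), and 1.54 with the GC trends subtracted. The CENPA locus in the table (chr2:26764289-26801067) is counted together with SLC35F6, so the share of either gene in these values is unknown. BUB3, a checkpoint protein also present outside mitosis, had 137 and 109 fragments in HT-29 cells, a change of -0.55 that was not called. In NCM460 cells BUB3 rose by 0.61, and the value was -0.27 after GC subtraction.

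The 3 chromosomal passenger subunits, which place AURKB at centromeres and the midzone, all fell in HT-29 cells, and their sum had the largest drop of the 9 classes, by 1.95 (-2.32 to -1.59). INCENP, the scaffold of the complex, had 141 and 45 fragments, CDCA8 (borealin) had 53 and 12, and BIRC5 (survivin) had 79 and 26. Their log2 changes were -1.83, -2.19 and -1.75. In NCM460 cells INCENP went from 70 to 52 fragments and fell by 0.87, which was -0.27 after GC subtraction, while CDCA8 (-0.38) and BIRC5 (-0.28) were not called. The interval of the difference between the lines was below 0 for each of the 3 genes with the GC trends subtracted.

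All 10 kinesin genes were lower with SCS in HT-29 cells, and 8 were called. KIF15 and KIF18A, with 9 and 4 and with 16 and 11 fragments, were not called. The class sum was 305 CPM in the HT-29 control and 119 CPM with SCS, and 357 and 313 CPM in NCM460 cells. KIF4A, the chromokinesin of the midzone, fell by 1.55, from 76 to 29 fragments, and KIF20A and KIF23, the cytokinesis kinesins, fell by 1.54 and 1.43, from 53 to 20 and from 88 to 37. KIFC1, a minus-end motor, went from 77 to 33 fragments, KIF22, another chromokinesin, fell by 1.38, KIF20B by 1.34 and KIF2C, the microtubule depolymerase, by 1.06. KIF11, the motor that separates the spindle poles, fell from 72 to 40 fragments, by 1.04, in HT-29 cells and rose from 4 to 21 in NCM460 cells. The NCM460 rise of KIF11 was 1.57 on the log2 scale (0.35 to 3.92), and 0.46 without a call after GC subtraction. KIF18A had 2 and 13 fragments in NCM460 cells, a log2 ratio of 1.59 (0.08 to 5.42), which was 0.43 and not called after GC subtraction. KIF22 and KIFC1 had 92 and 82 and 59 and 49 fragments in NCM460 cells and were called lower, at -0.63 and -0.72, calls that were each lost under 6 alternatives. The other kinesins were not called in NCM460 cells, with log2 values from -0.57 for KIF20A to 1.16 for KIF15.

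Of the 6 spindle assembly genes, 5 were lower with SCS in HT-29 cells and 2 were called. TPX2, which activates AURKA on the spindle, fell from 265 to 85 fragments, by 1.85, and NUSAP1, a microtubule bundling protein, from 93 to 46, by 1.21, although exons of AC087721.2 overlap NUSAP1 on the same strand and its value is uncertain. ASPM had 66 and 83 fragments, a log2 change of 0.10 (-0.39 to 0.59), and HMMR had 23 and 21, DLGAP5 20 and 11 and CKAP2 65 and 56. None of these last 4 was called. In NCM460 cells CKAP2, a spindle-associated protein (chr13:52455429-52476628, plus strand), rose from 4 to 36 fragments, by 2.28 (1.22 to 4.65). After GC subtraction its value was 1.12, with an interval from 0.05 to 3.48. It was the only gene of the 49 whose NCM460 rise was kept under all 14 alternatives. ASPM with 2 and 15 fragments, HMMR with 3 and 15 and NUSAP1 with 14 and 48 were also called higher there, and none of the 3 was called after GC subtraction. TPX2 had 79 and 114 fragments in NCM460 cells, a log2 change of 0.05 (-0.37 to 0.49).

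All 4 cytokinesis genes fell in HT-29 cells, where their sum dropped from 267 to 93.6 CPM. AC068831.7 overlaps most of the exon length of PRC1 on the same strand, so its value is uncertain. PRC1, the bundler of midzone microtubules, had 178 and 61 fragments (-1.74), ANLN, the contractile ring scaffold anillin, 146 and 52 (-1.68), RACGAP1, of the centralspindlin complex, 77 and 36 (-1.28), and ECT2, the RhoA exchange factor, 145 and 76 (-1.14). In NCM460 cells ANLN rose from 10 to 50 fragments, by 1.69 (0.85 to 2.99), a value that was 0.69 and not called after GC subtraction. PRC1, ECT2 and RACGAP1 had values of 0.74, 0.70 and 0.39 in NCM460 cells with intervals that included 0. The class median in NCM460 cells was 0.72 as counted and -0.60 with the deposited FPKM.

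The 3 genes of mitotic exit fell together in HT-29 cells. CDC20, the activator of the APC/C, had 129 and 68 fragments (-1.13), UBE2C, its ubiquitin-conjugating enzyme, 92 and 31 (-1.73), and PTTG1, the securin that it degrades, 62 and 18 (-1.89). None was called in NCM460 cells, where CDC20 had 155 and 151 fragments (-0.50), UBE2C 90 and 96 (-0.37) and PTTG1 28 and 58 (0.55). MKI67, the chromosome surface protein Ki-67, had the most fragments of the 49 genes in the HT-29 control, with 523, and 143 with SCS, a fall of 2.09 (-2.38 to -1.83), and in NCM460 cells it had 136 and 159 fragments (-0.24). TOP2A, the topoisomerase of mitotic chromosomes, fell from 199 to 127 fragments in HT-29 cells, by 0.87, and rose from 17 to 54 in NCM460 cells, by 1.12, which was 0.06 after GC subtraction.

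**Figure D4:**
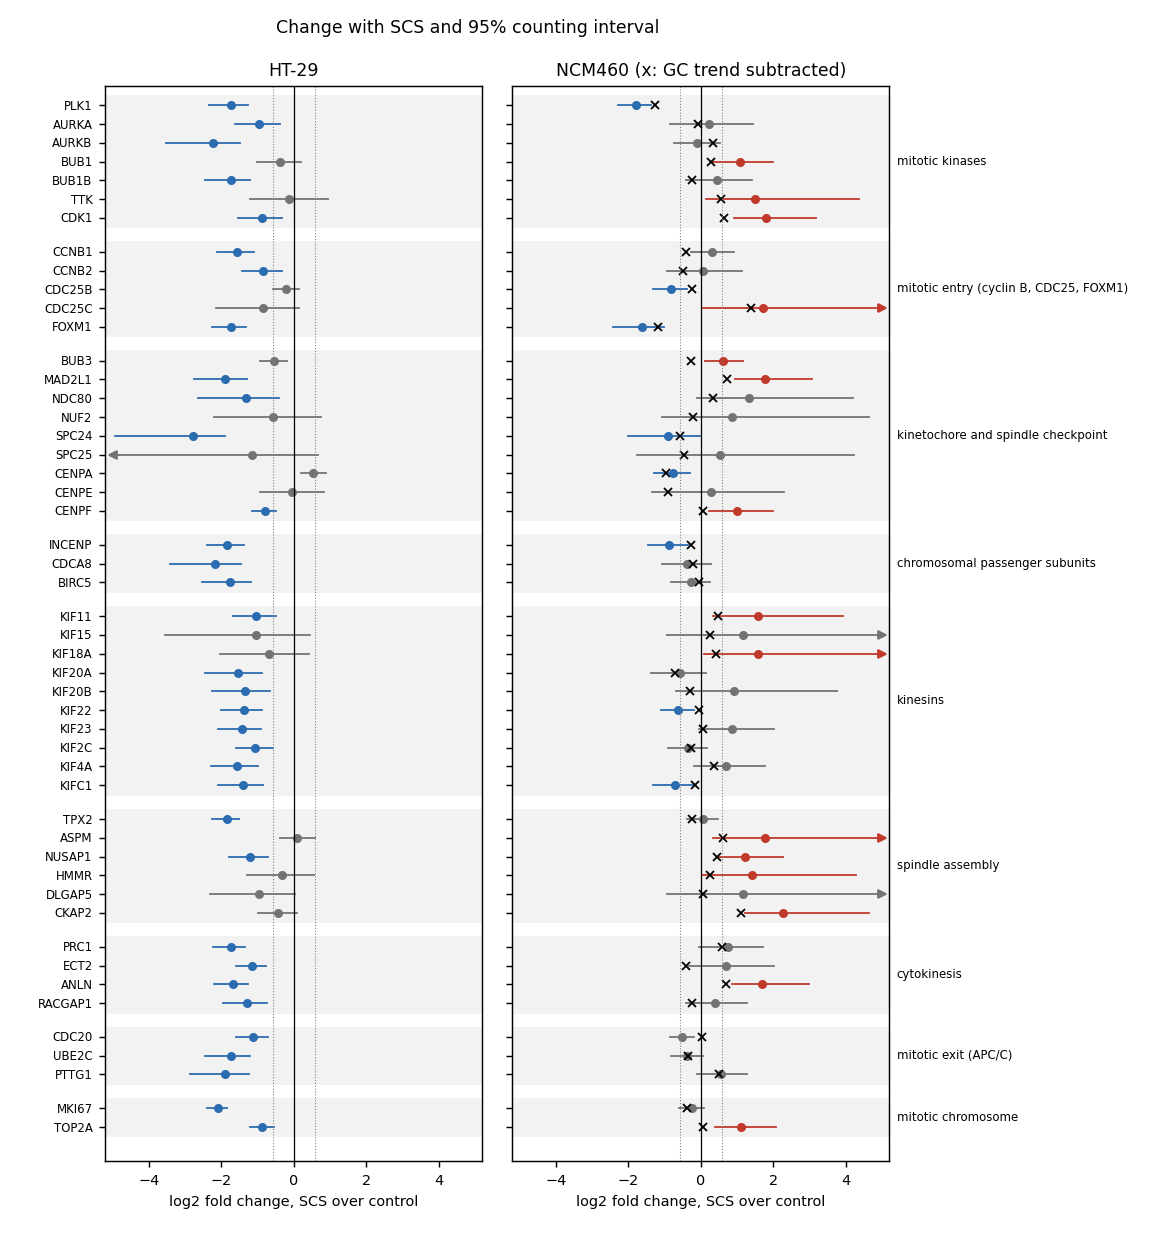
log2 fold change of SCS over control with its 95% counting interval for each gene in HT-29 (left) and NCM460 (right) cells, blue for genes called lower, red for genes called higher and grey for genes not called, with dotted lines at 1.5-fold, arrows where an interval leaves the axis and crosses for NCM460 values after GC subtraction. Blue fills the HT-29 panel with 34 genes, whereas the NCM460 panel holds 8 blue and 15 red, of which PLK1, FOXM1 and CENPA and, in the other direction, CKAP2 stayed called at the crosses.

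The change differed between the lines for most of the genes. The HT-29 change was the lower of the pair for 46 of 49 genes, with an interval below 0 for 36, against 17.7% of the 10849 loci compared, and above 0 for CENPA and CDC25B, against 14.5%. The median difference was -1.92, and -0.13 over all loci. With the GC trends of both lines subtracted, 29 intervals were below 0, against 13.7% of loci, 1 was above 0, and the median difference was -1.51. MAD2L1 had a difference of -3.85 (-5.03 to -2.68) and ANLN one of -3.50 (-4.57 to -2.44), and after GC subtraction they were -3.06 and -2.74. PLK1 and FOXM1 were the pair called lower in both lines before and after GC subtraction. As counted, 6 genes were called lower in both lines, 7 were called in opposite directions, and 21 were called lower in HT-29 cells without a call in NCM460 cells. These counts were 2, 1 and 34 after GC subtraction. The same split over all loci is not given here, so whether these counts differ from it cannot be told.

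Transcript GC content went with these values. The 49 genes had a median transcript GC content of 43.2%, against 48.6% over the loci tested, and across them the NCM460 log2 change had a Spearman's rho with GC content of -0.83 (n = 49 genes). Over 12555 loci the rho was -0.63. In HT-29 cells it was -0.52 over the genes and -0.12 over 12061 loci. These genes share libraries and are not independent. Of the 16 genes with the lowest GC content (34.2 to 40.1%), 16 had a value above 0 in NCM460 cells as counted, with a median of 1.37, and of the 16 with the highest (48.3 to 59.6%), 1 did, with a median of -0.54. After subtraction these medians were 0.29 and -0.25. In HT-29 cells the median was below 0 in each band, at -0.93, -1.05 and -1.74 from low to high GC content, and 8, 11 and 15 genes were called lower.

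**Figure D5:**
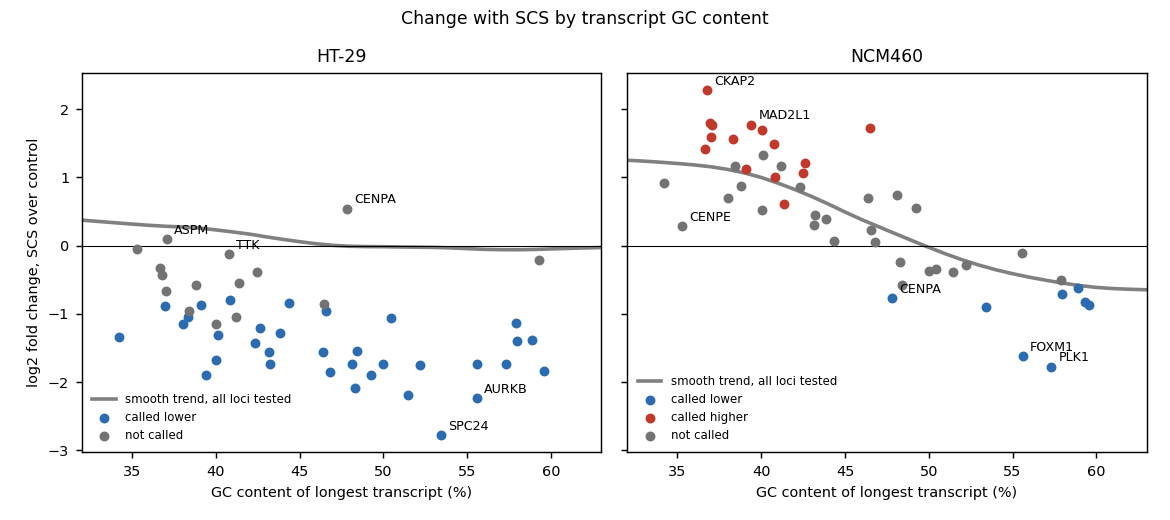
log2 fold change of SCS over control against the GC content of the longest transcript (%) for the 49 genes in HT-29 (left) and NCM460 (right) cells, with points coloured by call and the grey line the smooth trend over all loci tested. In NCM460 cells the points follow the trend with PLK1, FOXM1 and CENPA called below it and CKAP2 called above it; in HT-29 cells all points but that of CENPA lie below the trend.

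A model that asks for a change shared by both lines, and treats a difference between them as error, called none of these genes. Of the 46 genes it could test, edgeR's quasi-likelihood test called 0 and DESeq2 called 0, against 0.063% of 9527 loci by edgeR. At an unadjusted p under 0.05, 6 of the genes passed by edgeR (PLK1, FOXM1, SPC24, INCENP, MKI67 and CDCA8) and 4 by DESeq2. Of all 9527 loci, 574 passed that limit by edgeR and 247 by DESeq2. By edgeR's test PLK1 had the smallest Benjamini-Hochberg adjusted p of these genes, at 0.343. The smallest adjusted p among them by DESeq2 was 0.081.

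Further genes of the same machinery, listed by complex, were also counted in HT-29 cells. Of 120 such genes, 47 were called lower and 9 higher, with a median of -0.59. Of all loci tested 14.8% and 16.8% were called and the median was 0.07. By any amount, 92 of the 120 were lower, against 46.6% of loci. The groups were uneven, and those of cohesin and the APC/C were close to these background shares for lower calls. Condensin, which compacts mitotic chromosomes, had 7 of 8 subunits called lower. Among them NCAPH went from 53 to 7 fragments and fell by 2.81. Of the other outer kinetochore genes 7 of 17 were called lower, with ZWINT at 76 and 18 fragments (-2.18). Of the inner centromere genes 6 of 18 were called lower, with HJURP, the CENPA chaperone, at 60 and 20 (-1.71). Of the other spindle and cytokinesis genes 11 of 25 were called lower and 1 higher. The kinesin KIF18B had 53 and 8 fragments (-2.66). The other mitotic cyclins and CDC25 genes had 4 of 5 called lower. CDC25A was at 20 and 3 fragments and CCNF, cyclin F, at 83 and 24. Cohesin, which is also loaded in interphase, had 2 of 10 called lower and 2 higher. CDCA5 (sororin), its mitotic regulator, was at 70 and 17 fragments (-2.14) and STAG2 at 114 and 253 (0.91). The core and inhibitor genes of the APC/C had 3 of 17 called lower and 1 higher. FBXO5, the APC/C inhibitor EMI1, was at 24 and 7.

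The regulators of these promoters and the brakes on CDK1 were mixed in HT-29 cells. MYBL2, which encodes B-MYB, went from 210 to 27 fragments, a fall of 3.09 (-3.83 to -2.61), and 4 of 14 DREAM, MuvB and NF-Y genes were called lower and 2 higher. The locus of LIN37, a MuvB subunit, went from 64 to 128 fragments (0.75), but it is counted together with further genes and its value is uncertain. Of the 7 brakes, 3 were called higher and 3 lower. CDKN1A, which encodes the CDK inhibitor p21, rose from 25 to 279 fragments, by 3.16 (2.66 to 3.90), GADD45A from 29 to 96, by 1.44, and SFN (14-3-3 sigma) from 74 to 228, by 1.37. PKMYT1, a CDK1 inhibitory kinase, fell from 34 to 9, by 1.92. In NCM460 cells CDKN1A had 187 and 246 fragments (-0.08, -0.36 to 0.20), MYBL2 fell from 128 to 76 (-1.20, not called after GC subtraction), and GADD45A rose from 14 to 55 and stayed called after GC subtraction. Of the 119 further genes tested in NCM460 cells, 14 were called lower and 38 higher, where all loci gave 13.7% and 15.3%, and 4 and 18 after GC subtraction, where all loci gave 6.4% and 6.19%, so that the lower calls were not above the background share. The cohesin genes made up 6 of those rises as counted and 5 after subtraction, among them STAG2, with 6 and 48 fragments. MAD1L1, the partner of MAD2L1, was lower in both lines, going from 65 to 31 fragments in the HT-29 pair (-1.24) and from 38 to 16 in the NCM460 pair (-1.59), and it stayed called after GC subtraction. CCNA2, cyclin A2, fell from 64 to 26 fragments in HT-29 cells and rose from 8 to 43 in NCM460 cells.

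The promoter letters were set beside the calls as a description. Of the 34 genes with a CHR form in the window, 25 were called lower in HT-29 cells, with a median of -1.18, and of the 7 without one, 3 were, with a median of -0.86. Of the 8 genes without a matched window, 6 were called lower there, with a median of -1.51. In NCM460 cells the 34 held 10 called higher and 4 called lower as counted, and the 7 held 3 of each. KIF11 and CENPF, whose upstream sequences carry both kinds of letters, were called in opposite directions in the lines. MKI67 fell in HT-29 cells with a NCM460 interval that included 0. CDC25C, with none of the letters in the window at its most upstream start, was not called in HT-29 cells, and any other start was not searched.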

How the data were processed

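RNA-seq libraries of untreated and SCS-treated HT-29 and NCM460 cells were analysed, 1 library per condition. The authors extracted RNA with TRIzol, sequenced paired ends and used Cuffdiff. The submitters' processing notes name bcl2fastq 2.17.1.14, cutadapt 1.9.1, Bowtie2, HTSeq 0.6.1 and the build hg19, whereas 93.9% of 16172 single-gene loci had the coordinates of GENCODE 29 (GRCh38), so coordinates are given on GRCh38. The deposited count columns are a signal: fragment counts divided by a size factor per library by the authors. Whole fragments (within 0.1) were recovered for 99.8% to 99.9% of values by dividing by the smallest step of each column. The authors' deposited FPKM values were used to compare genes per length. Rows with identical values for neighbouring genes were merged to 1 locus, and rows without a gene were left out (26 rows, up to 0.0352% of fragments).

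Levels were CPM of all fragments in genes with TMM factors (edgeR 4.0.16). A locus was tested in a line where its 2 libraries averaged 1 CPM or more. log2 fold changes used a prior count of 2, and intervals were 95% exact Clopper-Pearson, so depth sets their width and preparation error is not in them. The difference between lines used a normal interval on the log ratio of counts plus 0.5. GC content and length came from the longest GENCODE 29 transcript, and lowess trends used a span of 0.3. The shared-effect model had terms for line and treatment and Benjamini-Hochberg adjustment over all loci kept (edgeR, with DESeq2 1.42.0 as the alternative); this count model ran on the recovered fragments, as the count test the design allowed. Steps were tested on simulated data: 70.3% of loci changed 2-fold were called in HT-29 and 46.8% in NCM460, and 2.37% and 2.14% of unchanged loci. Those fragments were simulated with counting error only, without a spread between cultures or a GC trend. The shares of unchanged loci are therefore not false-call rates for these data. In the simulation of the shared model 200 of 9527 loci were changed 4-fold, by an effect shared by both lines. Of these, edgeR called 175, with 8 false calls, and DESeq2 called 69, with 2 false calls. The power for the 49 genes, most of which differed between the lines, was not tested. The genes, classes and further lists were chosen with earlier results of these data known. All 49 genes could be named; of each further group, the gene with the largest rise and fall in each line among those with a mean of at least 5 CPM, of which a selection is given. KIFC1, SPC25 and KIF15 are placed on alternate scaffolds in the table with extra rows at 0. Exons of 17 of the genes overlap a gene on the opposite strand, and those of 4 (BUB1B, CENPA, NUSAP1 and PRC1) a gene on the same strand. Scaling, prior count, filters, trends, thinning, shared loci and the fold required for a call were varied in 14 alternatives.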

Additional observations from a re-analysis of the deposited data

Results flagged for a closer look

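CDK1, MAD2L1, CENPF, KIF11, NUSAP1, ANLN and TOP2A were called lower in HT-29 cells and higher in NCM460 cells, with 1 library per condition, so that the difference was not tested beyond counting error. The share of all loci with such opposite calls is not given here. The log2 change in HT-29 cells minus that in NCM460 cells was -2.82 for CDK1, -3.85 for MAD2L1, -1.86 for CENPF, -2.85 for KIF11, -2.51 for NUSAP1, -3.50 for ANLN and -2.04 for TOP2A. After the GC trends were subtracted the differences were -1.95, -3.06, -1.13, -2.02, -1.89, -2.74 and -1.24 in the same order, each with an interval below 0, and none of the 7 rises in NCM460 cells was then called.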

How the results depend on the processing

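No replicate block could be fitted, since each condition had 1 library; the shared-effect model is the fit that pairs control and SCS within each line. Of the 34 falls in HT-29 cells, 26 were called under all 14 alternatives, and of the 8 falls and 15 rises in NCM460 cells, 2 and 1 were. In HT-29 cells 1 gene was called higher by total fragments and the median was -1.57 with FPKM. Calls with FPKM used the 1.5-fold limit alone, without an interval, and so are looser than the other calls. In NCM460 cells the 8 falls became 2 (total fragments), 5 (nuclear fragments only), 17 (FPKM), 3 (GC trend), 4 (expression trend) and 2 (calls at 2-fold). The 15 rises became 26 (total fragments), 1 (GC trend) and 9 (length trend). The NCM460 median was 1.21 by total fragments, -0.21 with FPKM and -0.055 with the GC trend subtracted. Reversed NCM460 values included the medians of the passenger subunits (0.28, total fragments) and cytokinesis (-0.60, FPKM), BUB3 (-0.27, GC trend), KIF22 (0.054, total fragments), NUSAP1 (-0.17, FPKM) and ANLN (-0.18, FPKM). GC subtraction also changed the sign of the kinetochore (0.61 to -0.27), entry (0.07 to -0.40), mitotic chromosome (0.44 to -0.17) and exit (-0.37 to 0.04) medians. Further single genes changed sign with it, among them CCNB1 (0.31 to -0.40) and ECT2 (0.70 to -0.42). With the GC trend subtracted, 26 genes were below 0 in NCM460 cells, against 16 as counted. The shared-effect model called 6 loci with edgeR and 19 with DESeq2. The cause of these shifts was not tested. The median of all loci was 0.07 in HT-29 and 0.03 in NCM460 cells, and it was 0.31 and 0.63 by total fragments, -0.07 and 0.23 by nuclear fragments only, -0.13 and -0.34 with FPKM, and -0.10 in NCM460 cells with the authors' scaling. Of all calls, the share that was lower was 46.8% in HT-29 and 47.3% in NCM460 cells, and 26.2% and 5.92% by total fragments, 60.5% and 34.2% by nuclear fragments only, and 58.0% and 62.1% with FPKM. In NCM460 cells it was 58.0% with the authors' scaling and 37.0% for calls at 2-fold. Depth limits the NCM460 control most.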
